A study of Mus musculus with 19 samples.

Results

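The nuclear factor I (NFI) family consists of 4 genes in the mouse, *Nfia*, *Nfib*, *Nfic* and *Nfix*. They were taken by name, matching the gene identifiers of the count files to GENCODE symbols without the version number, and all 4 were found among the 51912 genes counted. Each library held RNA of the neocortex of 1 mouse embryo at E13.5, on a background of mixed C57BL/6 and 129 strains. The cKO-E embryos (n = 5) had *Emx1*-Cre and both alleles of *Ino80*, the catalytic subunit of the INO80 chromatin remodeller, flanked by loxP sites. In the dKO-E embryos (n = 7) *Trp53*, which codes for p53, was floxed as well. The remaining 7 embryos were labelled control (ctrl), and which alleles they carried was not given in the sources used here. *Emx1*-Cre acts in neural progenitor cells (NPCs) of the cortex and is passed on to the cells they make, so interneurons, microglia and vessel cells in the tissue kept their alleles. The comparisons asked how loss of *Ino80* changed cortical gene expression, and what was left of the change when p53 was lost too.

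NFI proteins are transcription factors that bind DNA as dimers at a palindrome of the half-site TTGGC. Their N-terminal part holds the DNA-binding and dimerization domain and is highly conserved, whereas the C-terminal parts differ more and act on transcription. In the embryonic forebrain *Nfia*, *Nfib* and *Nfix* are expressed in radial glia and in young neurons. They promote the passage of radial glia to intermediate progenitors and neurons and later to glia, and mice that lack them have defects of the corpus callosum, the hippocampus and astrocyte production.

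Because the members descend from a common gene, it was first asked whether a read could fit more than 1 of them. A coding exon of 532 bases, which lies in the conserved N-terminal part, had the same length in all 4 members. On GRCm38 (mm10) it lies at chr4:97783082-97783613 on the plus strand in *Nfia*, and on the minus strand at chr4:82498238-82498769 in *Nfib*, chr10:81420267-81420798 in *Nfic* and chr8:84771784-84772315 in *Nfix*. Of its 532 bases, 351 (66.0%) were the same in all 4 members. The stretch of 90 bases with most agreement, bases 53 to 142 of the exon, is shown from the GENCODE transcripts, in the direction of transcription, because it is where the members are hardest to tell apart. Capitals mark bases that differ from *Nfia*.
Nfia: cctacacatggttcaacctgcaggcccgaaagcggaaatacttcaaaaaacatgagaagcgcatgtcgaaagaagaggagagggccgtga
Nfib: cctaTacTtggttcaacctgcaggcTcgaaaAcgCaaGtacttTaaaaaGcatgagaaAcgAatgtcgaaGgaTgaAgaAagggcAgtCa
Nfic: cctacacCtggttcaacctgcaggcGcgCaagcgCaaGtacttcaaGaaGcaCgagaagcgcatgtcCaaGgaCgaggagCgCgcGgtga
Nfix: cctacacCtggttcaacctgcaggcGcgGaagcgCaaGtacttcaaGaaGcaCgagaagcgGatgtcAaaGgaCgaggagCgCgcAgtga
Even here *Nfib* differed from *Nfia* at 16 bases, *Nfix* at 15 and *Nfic* at 14. These counts are against *Nfia* only. *Nfic* and *Nfix* share most of their marked bases and so differed less from each other than from *Nfia*. Over the whole exon, identity between pairs ran from 75.8% (*Nfia* and *Nfic*) to 82.0% (*Nfic* and *Nfix*). The longest stretch that any transcript of 2 members shared exactly was 32 bases, between *Nfic* and *Nfix*. Between *Nfia* and *Nfib* the longest such stretch was 25 bases.

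Sequencing depth on genes ran from 820915 to 8095810 counts per library (median 2952788). Expression is given in CPM, counts per 1000000 counts on genes after normalization by TMM factors, and counts stand for tagged cDNA molecules. A difference between groups is given as log2FC, the log2 of the fold change, with its standard error (SE), and was tested for every gene by the quasi-likelihood test of edgeR with Benjamini-Hochberg adjustment. Whole-gene counts cannot show the deletions themselves. *Ino80* was higher in both mutants (146 to 181 CPM in cKO-E and 160 to 200 in dKO-E) than in ctrl (110 to 133), and *Trp53* ranged from 36.7 to 49.9 CPM in ctrl and from 26.9 to 42.4 in dKO-E. Reads on *Emx1* (75.3 to 145 CPM) and *Lhx2* (151 to 397), which mark cortical tissue, were present in every library.

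*Nfia* and *Nfib* were among the genes with the most counts in the tissue, *Nfix* was at an intermediate level and *Nfic* was scarce. Ranked by mean CPM without regard to length, *Nfib* was the 6th and *Nfia* the 7th of 24111 genes with a count in ctrl, *Nfix* the 170th and *Nfic* the 5969th. Per kilobase of annotated exons, ctrl embryos had 410 CPM per kb of *Nfia*, 330 of *Nfib*, 89.9 of *Nfix* and 4.69 of *Nfic* (means, n = 7). The ranges over the 7 embryos did not overlap between any of these neighbours in the order. The order of *Nfia* and *Nfib* depended on the length used, because annotated exons of *Nfib* add up to 14.96 kb while its longest transcript has 9116 bases. With the longest transcript as length, *Nfib* came first with 542 ± 34.3 CPM per kb (SD, n = 7) and *Nfia* second with 469 ± 21.4. *Nfic* rested on 18 to 223 counts per library, against at least 2991 for *Nfia*, so its values carry the largest counting error of the 4.

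**Figure D1:**
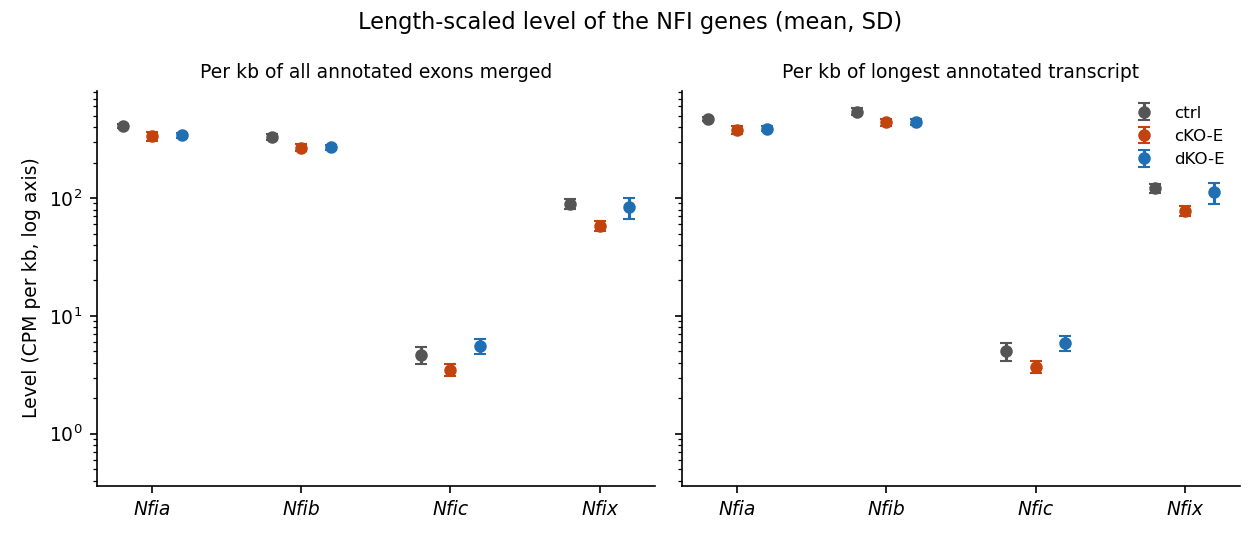
Mean level of each NFI gene in CPM per kilobase on a log axis, with SD, for 7 ctrl, 5 cKO-E and 7 dKO-E embryos. Left, per kilobase of all annotated exons merged; right, per kilobase of the longest annotated transcript. *Nfia* and *Nfib* change places between the panels, and *Nfic* lies far below the others in both.

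*Nfix* (ENSMUSG00000001911.16, chromosome 8 from 84699876 to 84800344, minus strand) was the member that fell most clearly in cKO-E. Its levels in ctrl were 567 CPM at the lowest, 658 at the median and 741 at the highest. The 5 cKO-E embryos had 377, 400, 447, 448 and 476 CPM. All cKO-E embryos lay below all ctrl embryos, as they did for 5.64% of the genes tested. The ctrl mean was 661 ± 63.2 CPM (SD, n = 7) and the cKO-E mean 429 ± 40.0 (SD, n = 5), a significant decrease (log2FC -0.62, SE 0.08, edgeR adjusted p = 2.98e-05). At the false discovery rate of 0.001 used against ctrl, 2.32% of the 11660 genes tested were downregulated and 1.06% upregulated, and *Nfix* was the only member called. Its log2FC was among the lowest 2.38% of all genes. Within sequencing batch 1 it was -0.72 (adjusted p = 0.000138), and within batch 2, with 2 cKO-E embryos, it was -0.50 and no longer past 0.001 (adjusted p = 0.0112).

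*Nfia* and *Nfib*, which lie on the same chromosome, moved by nearly the same amount as each other. *Nfia* (ENSMUSG00000028565.18, chromosome 4 from 97772734 to 98118874, plus strand) had between 4210 and 4770 CPM in ctrl, with a median of 4490. In cKO-E its levels were 3130, 3690, 3720, 3790 and 3860 CPM. *Nfib* (ENSMUSG00000008575.17, chromosome 4 from 82290173 to 82705750, minus strand) had between 4470 and 5320 CPM in ctrl, with a median of 5040, and 3580, 3920, 4130, 4160 and 4260 CPM in cKO-E. For both genes every cKO-E embryo was below every ctrl embryo, as for 5.64% of the genes tested. The log2FC was -0.30 (SE 0.06, adjusted p = 0.0017) for *Nfia* and -0.30 (SE 0.06, adjusted p = 0.00173) for *Nfib*, so neither passed 0.001. With sequencing batch as a term both did, at adjusted p = 0.000595 and 0.000304, and *Nfib* also passed when ctrl H was left out (-0.32, adjusted p = 0.000677). With litter as a term neither did, at -0.25 and -0.26 (adjusted p = 0.0177 and 0.00888). Within batch 1 the log2FC values were -0.38 for each of them. Within batch 2 they were -0.19 and -0.20 (adjusted p = 0.133 and 0.122).

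*Nfic* (ENSMUSG00000055053.18, chromosome 10 from 81396186 to 81455635, minus strand) had 24.6 to 38.5 CPM in ctrl, with a median of 30.4. The cKO-E embryos had 19.7, 22.1, 22.2, 25.6 and 26.5 CPM, so the groups overlapped, and 3 of the 5 lay below every ctrl embryo. The log2FC of -0.42 (SE 0.13, edgeR adjusted p = 0.0329) did not pass 0.001. It was -0.53 within batch 1 (adjusted p = 0.0426) and -0.22 within batch 2 (adjusted p = 0.622), and -0.25 with litter as a term (adjusted p = 0.265).

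**Figure D2:**
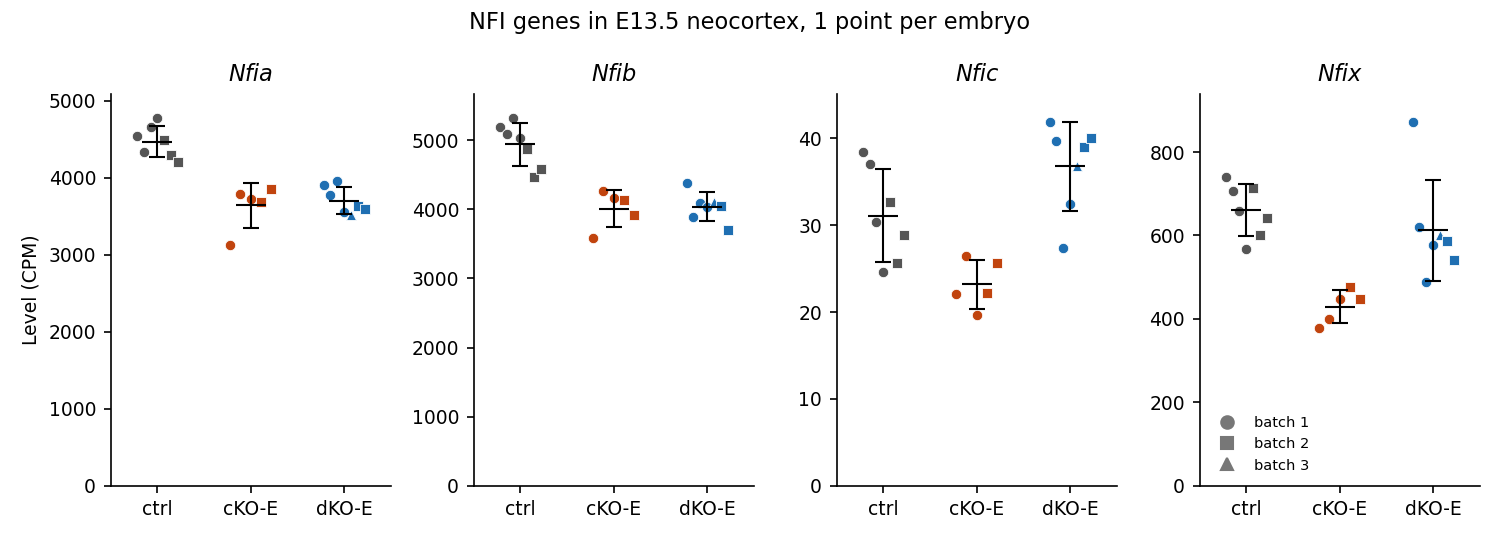
Level of each NFI gene in CPM, 1 point per embryo, with sequencing batch as the shape of the point and the mean with SD as bars, on axes that start at 0. The cKO-E points of *Nfia*, *Nfib* and *Nfix* lie below all ctrl points, and the dKO-E points do so for *Nfia* and *Nfib* while those of *Nfix* and *Nfic* overlap ctrl.

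In dKO-E, *Nfia* and *Nfib* were called lower than in ctrl, and *Nfix* and *Nfic* were not called. Whether the members differed from each other in their change was not tested. *Nfia* had 3510 to 3960 CPM in the 7 dKO-E embryos, with a median of 3630, and *Nfib* had 3700 to 4380, with a median of 4050. All dKO-E embryos lay below all ctrl embryos for both, which was the case for 3.22% of genes tested. The log2FC against ctrl was -0.28 (SE 0.05, adjusted p = 0.000434) for *Nfia* and -0.30 (SE 0.05, adjusted p = 0.000514) for *Nfib*, where 2.34% of the 11381 genes tested were downregulated and 0.246% upregulated. These calls lay close to the threshold. With litter as a term the values were -0.20 (adjusted p = 0.104) and -0.33 (adjusted p = 0.0205). Within batch 1 they were -0.28 (adjusted p = 0.0153) and -0.34 (adjusted p = 0.00454), and within batch 2 they were -0.27 (adjusted p = 0.0228) and -0.26 (adjusted p = 0.0369). Leaving out any 1 of ctrl A, C or D or dKO-E D, E, F or G raised the adjusted p of *Nfia* above 0.001, to at most 0.00197, and any 1 of ctrl A to D or dKO-E B to G did so for *Nfib*, to at most 0.00194, while the log2FC values stayed between -0.32 and -0.26.

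*Nfix* had 489 to 871 CPM in dKO-E, with a median of 587, and overlapped ctrl. The log2FC against ctrl was -0.12 (SE 0.10, edgeR adjusted p = 0.439), with an interval of 1.96 SE from -0.31 to 0.07. It was -0.08 within batch 1 and -0.21 within batch 2 (adjusted p = 0.744 and 0.265). Embryo dKO-E A, at 871 CPM, stood apart from the other 6, which had at most 620, and without it the log2FC was -0.22 (adjusted p = 0.044). *Nfic* had 27.4 to 41.9 CPM in dKO-E, with a median of 39.0, and a log2FC of 0.18 against ctrl (SE 0.12, adjusted p = 0.35, interval -0.06 to 0.41). It was 0.06 within batch 1 and 0.44 within batch 2 (adjusted p = 0.856 and 0.213), and with litter as a term it was -0.11.

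Compared directly, *Nfix* and *Nfic* were upregulated in dKO-E relative to cKO-E, and *Nfia* and *Nfib* did not differ detectably. At the false discovery rate of 0.05 used here, 5.59% of the 11746 genes tested were higher and 9.42% lower in dKO-E. The log2FC was 0.51 for *Nfix* (SE 0.11, adjusted p = 0.00324) and 0.61 for *Nfic* (SE 0.13, edgeR adjusted p = 0.0026). All 7 dKO-E embryos were above all 5 cKO-E embryos for both genes, as for 2.52% of genes. For *Nfia* the difference was 0.02, with an interval of 1.96 SE from -0.10 to 0.15 (adjusted p = 0.861), and for *Nfib* 0.01, from -0.11 to 0.13 (adjusted p = 0.966). The sign of these last values turned when cKO-E A was left out, to -0.03 for each, and for *Nfib* when dKO-E A was left out, to -0.01. Within batch 1 *Nfix* differed by 0.64 and *Nfic* by 0.60 (adjusted p = 0.026 and 0.0478), and within batch 2, with 2 embryos of each genotype, by 0.29 and 0.66 (adjusted p = 0.185 and 0.157). The groups differed in sex, with 1 male of 5 in cKO-E and 5 of 7 in dKO-E. With sex as a term the log2FC values were 0.62 for *Nfix* and 0.74 for *Nfic* (adjusted p = 0.000252 and 0.000254).

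**Figure D3:**
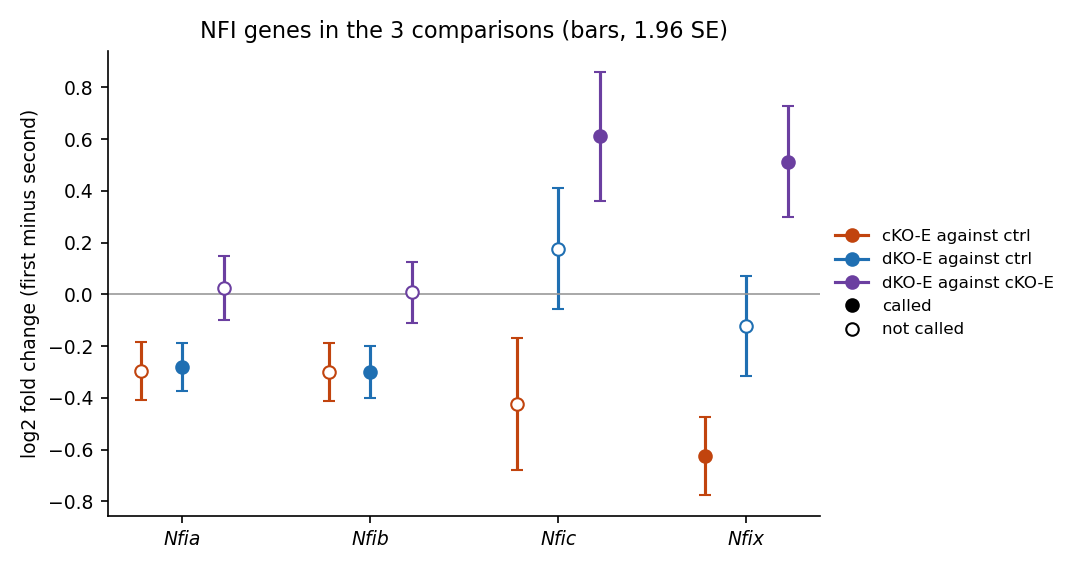
The log2FC of each NFI gene in the 3 comparisons, with bars of 1.96 SE; filled points were called (false discovery rate 0.001 against ctrl and 0.05 between the mutants). *Nfia* and *Nfib* sit near -0.3 in both mutants against ctrl and near 0 between them, while *Nfix* and *Nfic* differ between the mutants by 0.51 and 0.61.

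Littermates were compared next. Litters 4, 5 and 7 each held 1 cKO-E embryo beside 1 or 2 ctrl embryos. For *Nfix* the cKO-E embryo had 400 CPM in litter 4 against 658 in its ctrl littermate. In litter 5 it had 448 against 567 and 713, and in litter 7 it had 447 against 600 and 643. For *Nfia* and *Nfib* too, the cKO-E embryo was below its ctrl littermates in all 3 litters. This was not the case for *Nfic*, whose cKO-E embryo in litter 7 had 25.6 CPM, level with 1 ctrl littermate at 25.6 and below the other at 28.9. With litter as a term, the log2FC of cKO-E against ctrl was -0.56 for *Nfix* (edgeR adjusted p = 0.000894), and *Nfix* alone of the members was called. Litter 1 held 2 ctrl and 3 dKO-E embryos. There *Nfib* was at 5090 and 5190 CPM in ctrl and between 3890 and 4380 in dKO-E, and *Nfia* at 4330 and 4540 against 3770 to 3960. *Nfix* in litter 1 was at 706 and 741 CPM in ctrl and spread from 489 to 871 in dKO-E, the widest range of any genotype within a litter. The 4 dKO-E embryos of litter 2 lay between 542 and 600. As no litter held both mutants, litter and genotype cannot be told apart between cKO-E and dKO-E.

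**Figure D4:**
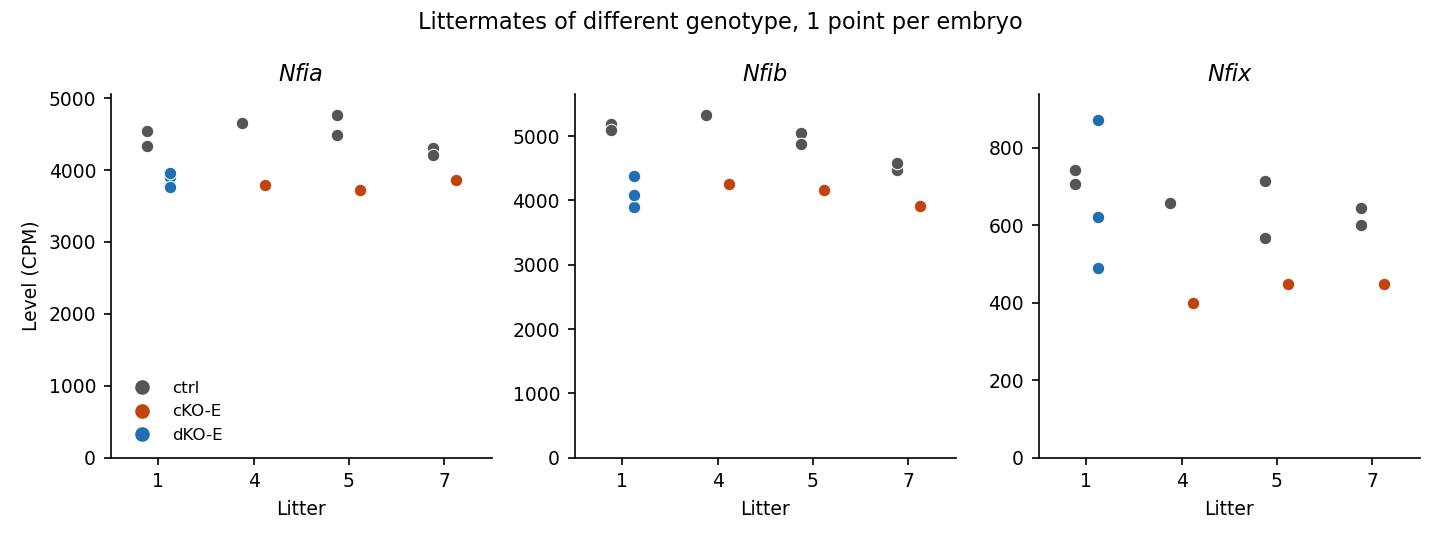
Level of *Nfia*, *Nfib* and *Nfix* in CPM in the 4 litters that held ctrl and mutant embryos, 1 point per embryo, on axes that start at 0. Each cKO-E embryo lies below its ctrl littermates in all 3 panels, and in litter 1 the dKO-E points lie below ctrl for *Nfia* and *Nfib* and spread from 489 to 871 CPM around ctrl for *Nfix*.

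The summed expression of the family followed its 2 abundant members. The ctrl mean was 10100 ± 497 CPM (SD, n = 7), the cKO-E mean 8098 ± 561 (SD, n = 5) and the dKO-E mean 8389 ± 407 (SD, n = 7), and the highest mutant embryo, at 9190, lay below the lowest ctrl embryo, at 9395. Scaled per kilobase of annotated exons, *Nfia* gave 49.2% of the family in ctrl, 50.3% in cKO-E and 48.7% in dKO-E. *Nfix* gave 10.8%, 8.80% and 11.9%, and *Nfic* gave 0.561%, 0.529% and 0.795%. The ratio of *Nfia* to *Nfib* in CPM was 0.907 ± 0.0404 in ctrl, 0.908 ± 0.0443 in cKO-E and 0.919 ± 0.0494 in dKO-E (SD, n = 7, 5 and 7), so it differed between groups by less than its spread. The ratio of *Nfix* to *Nfib* was 0.134 ± 0.0119, 0.107 ± 0.00853 and 0.151 ± 0.0242. These shares and ratios were described and not tested.

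Among embryos of the same genotype, *Nfia* and *Nfib* also varied together. After the mean of each group was subtracted from the log2 CPM, their correlation over the 19 embryos was 0.67, and that of *Nfic* and *Nfix* was 0.59. It was 0.49 for *Nfib* and *Nfix*, 0.23 for *Nfib* and *Nfic*, 0.22 for *Nfia* and *Nfix* and -0.02 for *Nfia* and *Nfic*. The points share libraries, litters, depth and normalization, and the values are descriptions.

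The genes most like each member by this measure, among 9289 genes with a mean of at least 10 CPM, were *Cdh2*, *Kif21a* and *Tcf4* for *Nfia* (r = 0.85, 0.83 and 0.82). They were *Nhsl1*, *Wwc1* and *Tenm4* for *Nfib* (0.88, 0.88 and 0.87), *Mbd3*, *Wdr92* and *Ago1* for *Nfic* (0.77, 0.71 and 0.70), and included *Med15* and *Ephb2* for *Nfix* (0.87 and 0.79). *Ephb2*, an ephrin receptor, was downregulated in cKO-E (log2FC -0.39, adjusted p = 9.97e-05) and had a value of -0.07 in dKO-E (adjusted p = 0.469). *Tenm4*, a teneurin of the cell surface, was downregulated in both mutants (-0.39 and -0.28, edgeR adjusted p = 0.000177 and 0.000848). Not all of these genes followed their member. In cKO-E *Cdh2* had -0.03, *Wwc1* 0.14 and *Med15* 0 (edgeR adjusted p = 0.776, 0.434 and 0.989).

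Then, genes beside and within the members were read. *Gm11266*, an antisense transcript that starts and ends within *Nfib* (chromosome 4 from 82508016 to 82547292, plus strand), shared no exon base with it in the annotation. It was downregulated in cKO-E, from 282 ± 28.5 CPM (SD, n = 7) to 199 ± 24.4 (SD, n = 5, log2FC -0.50, SE 0.08, edgeR adjusted p = 0.000576), which passed 0.001 in 17 of the 28 other settings. In dKO-E it was at 251 ± 25.7 CPM (SD, n = 7), a log2FC of -0.17 (adjusted p = 0.113), and it was higher there than in cKO-E by 0.34 (adjusted p = 0.0101). Whether reads were counted by strand was not given in the sources used here, so reads of *Gm11266* and of the *Nfib* intron around it cannot be told apart. *E130114P18Rik*, which overlaps the start of *Nfia* on the opposite strand and shares 4 exon bases with it, was not called in any comparison. Of the flanking genes tested, 2 were called between the mutants, in opposite directions. *Mpdz*, the nearest coding gene on the left of *Nfib*, 847358 bases away, was higher in dKO-E (log2FC 0.25, edgeR adjusted p = 0.0253). *Celf5*, 3592 bases from *Nfic*, was lower (-0.45, edgeR adjusted p = 0.0155). Over all genes tested in this comparison, 5.59% were called higher and 9.42% lower. *Tm2d1* beside *Nfia*, *Zdhhc21* beside *Nfib* and *Trmt1*, which ends 68 bases from *Nfix*, were not called in any comparison. *Lyl1* and *G430095P16Rik*, which overlap *Nfix* on the opposite strand and share 4 and 137 exon bases with it, had group means of at most 0.816 and 4.80 CPM. *Gm16104*, opposite to *Nfic*, shares 72 exon bases with it and had at most 1 count in any library. Whether reads on these shared bases were left out as falling on more than 1 gene could not be seen.

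Next, 3 lists of genes linked to the family were read beside its members. Of 15 genes known as targets of NFI proteins, 12 had enough counts for the test. In cKO-E 1 of the 12 was downregulated and 2 were upregulated, and the median log2FC was -0.05, against 0.02 over all genes. Over all genes tested, 2.32% were downregulated and 1.06% upregulated. The list was not sorted by whether NFI proteins raise or lower a target, so its median does not measure a response of the targets. *Sox9* is also on the second list. *Bbx*, an HMG-box gene, had 460 ± 18.8 CPM (SD, n = 7) in ctrl and fell to 322 ± 39.5 (SD, n = 5, log2FC -0.52, SE 0.07, edgeR adjusted p = 7e-05). *Tnc*, which codes for the matrix protein tenascin-C, rose from 9.71 to 31.7 CPM (1.64, SE 0.21, adjusted p = 5.33e-05), and *Fabp7*, a lipid-binding protein of radial glia, from 63.2 to 94.5 CPM (0.56, SE 0.08, adjusted p = 0.000182). Over the other settings tried, *Bbx* was called in 26 of 28, *Tnc* in 25 of 27 and *Fabp7* in 21 of 28. *Sox9*, which acts with *Nfia* at the onset of gliogenesis, had -0.42 (adjusted p = 0.00192), and the Notch effector *Hes1* had -0.50 (adjusted p = 0.017). *Ezh2*, a histone methyltransferase, had -0.07 (adjusted p = 0.408). *Gfap* had at most 1 count in any library and *Aqp4* at most 6, so these astrocyte genes were not tested.

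In dKO-E, *Bbx* alone of the 12 was called (-0.31, SE 0.06, edgeR adjusted p = 0.000936), with 372 ± 31.0 CPM (SD, n = 7), and it passed 0.001 in 6 of the 31 other settings tried. *Tnc* and *Fabp7* had 0.30 and 0.11 (adjusted p = 0.46 and 0.573). Both were downregulated in dKO-E relative to cKO-E, by -1.35 and -0.45 (adjusted p = 0.00028 and 0.0143), as were 9.42% of all genes tested. *Zcchc24*, a zinc finger gene, had a larger value than *Bbx* in dKO-E that did not pass 0.001, from a ctrl mean of 10.7 ± 3.04 CPM (SD, n = 7) to 17.7 ± 2.88 (SD, n = 7, log2FC 0.75, SE 0.16, edgeR adjusted p = 0.0034). The study, with the likelihood-ratio test of edgeR, listed *Zcchc24* as upregulated in dKO-E at 0.001. In cKO-E it had 0.62 (adjusted p = 0.024). *Bbx* differed by 0.22 between the mutants, short of 0.05 (adjusted p = 0.0651).

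The second list held 15 factors that act upstream of or beside the family in glial competence, of which 10 were tested. Only *Id4*, an inhibitor of basic helix-loop-helix factors, was called in cKO-E, from 208 ± 19.1 CPM (SD, n = 7) to 99.6 ± 25.8 (SD, n = 5) (log2FC -1.05, SE 0.13, edgeR adjusted p = 2.98e-05). Over all genes tested, 2.32% were downregulated and 1.06% upregulated in cKO-E, and 2.34% and 0.246% in dKO-E. The median log2FC over the 10 was -0.34 in cKO-E, against 0.02 over all genes. In dKO-E the median was -0.08, against 0.01 over all genes, and none of the 10 was called. *Notch1*, the receptor upstream of *Hes1*, had -0.41 in cKO-E against ctrl (edgeR adjusted p = 0.00209). With cKO-E as the reference, dKO-E values were 0.42 for *Notch1* (adjusted p = 0.000981) and 0.70 for *Id4* (adjusted p = 0.0154). With ctrl as the reference, dKO-E values were 0 for *Notch1* (adjusted p = 0.991) and -0.37 for *Id4* (adjusted p = 0.0725). *Zbtb20* and *Id2* were lower in dKO-E than cKO-E, by -0.25 and -0.39 (adjusted p = 0.0421 and 0.0237), and were called in 12 and 18 of the 27 other settings. Against ctrl they had -0.12 and -0.23 in dKO-E, and neither was called. The oligodendrocyte factors *Olig1* and *Olig2* had at most 4 counts in any library. *Pou3f3* was listed at 0 in every library.

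Of 9 genes of developmental timing, 8 were tested and none was called against ctrl in either mutant. Over all genes tested, 2.32% were downregulated and 1.06% upregulated in cKO-E, and 2.34% and 0.246% in dKO-E. *Dach1* had a log2FC of -0.60 in cKO-E (edgeR adjusted p = 0.00674) and *Lin28b*, a repressor of let-7 microRNAs, 0.38 (adjusted p = 0.00735). Between the mutants *Lin28b* was lower in dKO-E by -0.52 (adjusted p = 0.00728), *Nr2f2* lower by -1.55 (adjusted p = 0.00139) and the RNA-binding protein gene *Igf2bp1* higher by 0.30 (adjusted p = 0.021). Of all genes tested there, 5.59% were called higher and 9.42% lower. *Lin28a* was listed at 0 in every library.

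**Figure D5:**
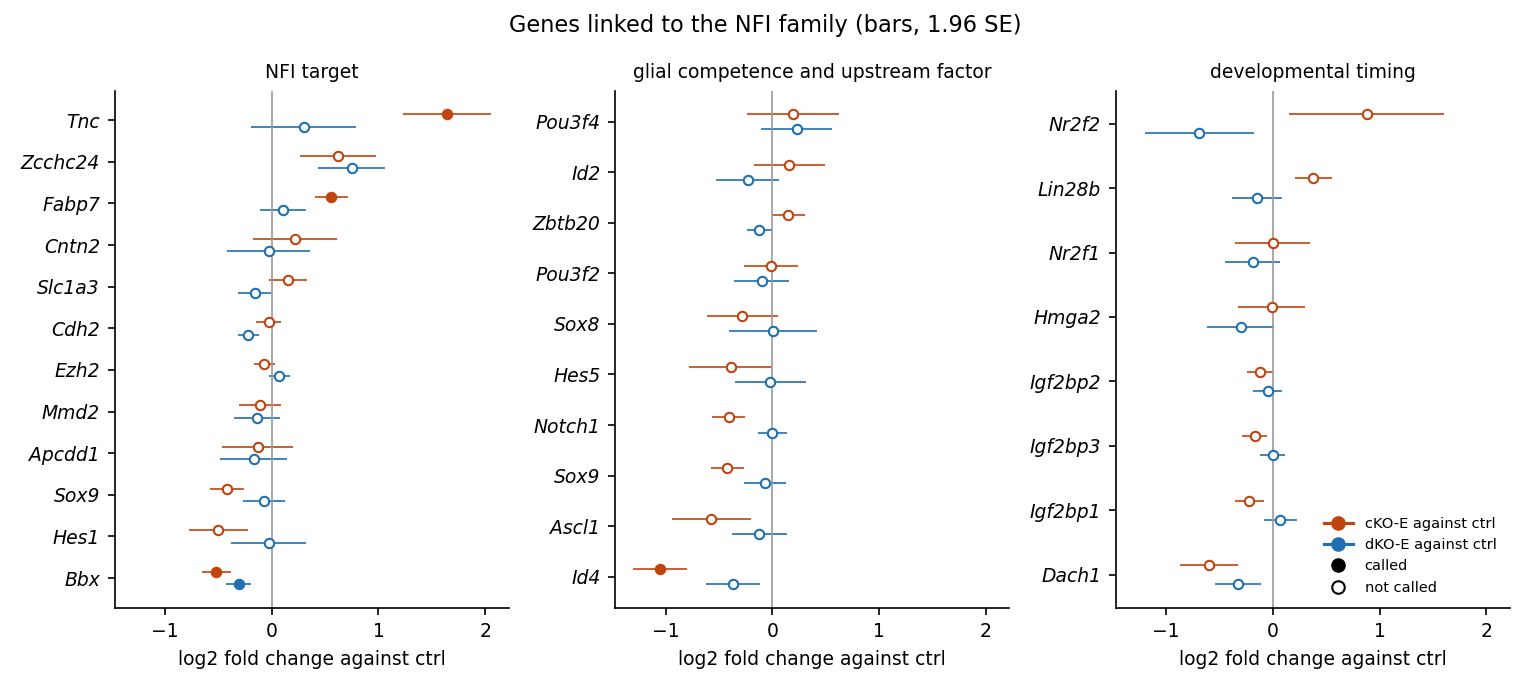
The log2FC against ctrl of the tested genes of the 3 lists in cKO-E and dKO-E, with bars of 1.96 SE; filled points were called at a false discovery rate of 0.001, and both comparisons use the same ctrl embryos. In cKO-E *Tnc* at 1.64, *Fabp7* at 0.56, *Bbx* at -0.52 and *Id4* at -1.05 were called, and in dKO-E *Bbx* at -0.31.

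Markers of the cell types in the tissue were read beside the members. In bulk tissue, fewer cells that express a gene and less RNA per cell cannot be told apart. Of the cortex identity genes, *Lhx2* was downregulated in cKO-E (-0.66, edgeR adjusted p = 7.51e-05), as were 2.32% of all genes tested. Of the 9 radial glia genes tested, *Prom1* was downregulated in cKO-E (-0.64, adjusted p = 0.000278) and *Fabp7* upregulated, with a median of -0.34, and the list summed to 1040 to 1350 CPM against 1240 to 1410 in ctrl. All 6 intermediate progenitor genes had values below 0 in cKO-E, from -0.46 to -0.15, and none was called. The 10 postmitotic neuron genes tested had a median of 0.01 in cKO-E and -0.23 in dKO-E. *Sox2* and *Tubb3* of these lists were listed at 0 in every library. A listed 0 need not mean that the RNA was absent, as the study stained SOX2 protein in NPCs at E13.5. Why these genes were at 0 was not tested, and the same caution applies to *Pou3f3* and *Lin28a*.

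Of the lists for cells outside the *Emx1* lineage or at its edge, microglia and Cajal-Retzius cells had genes called in cKO-E. Over all genes tested, 1.06% were upregulated in cKO-E. Of 12 microglia genes, 4 were tested and 3 upregulated in cKO-E, *Mpeg1*, *Csf1r* and *Dock2*, and the list summed to 35.8 to 45.7 CPM against 8.27 to 19.7 in ctrl and 8.37 to 11.7 in dKO-E. The Cajal-Retzius genes *Reln* and *Trp73*, 2 of 3 tested, were upregulated in cKO-E, and their list summed to 758 to 877 CPM against 473 to 619 in ctrl. The 6 interneuron lineage genes summed to 63.8 to 119 CPM in cKO-E, 9.14 to 83.7 in ctrl and 28.8 to 69.3 in dKO-E, and the 8 genes of medial pallium and hem to 92.6 to 234, 93.8 to 172 and 101 to 175, with none called against ctrl in either list. Endothelial and mural genes (8, 7 of them tested) summed to 68.8 to 85.4 CPM in cKO-E and 48.0 to 92.9 in ctrl, red blood cell genes (5) to 44.9 to 74.2 and 41.9 to 113, with none called. The 3 choroid plexus genes summed to at most 0.564 CPM in any library. Between the mutants, where *Nfix* and *Nfic* were higher in dKO-E, *Emx1* and *Lhx2* were higher too (0.45 and 0.48, edgeR adjusted p = 0.00536 and 0.0173). The 9 radial glia genes tested were split, with 5 values above 0 and 4 below. *Nes* and *Prom1* were called higher (0.29 and 0.26) and *Fabp7* lower (-0.45, edgeR adjusted p = 0.0143). All 4 interneuron lineage genes tested were lower in dKO-E, as were 3 of 4 Cajal-Retzius genes, all 3 microglia genes, 4 of 10 neuron genes (*Dcx*, *Tbr1*, *Stmn2* and *Mapt*, from -0.92 to -0.48) and *Lmx1a* of the hem genes. Over all 11746 genes tested between the mutants, 5.59% were called higher and 9.42% lower in dKO-E. No intermediate progenitor, endothelial, mural or red blood cell gene was called. The part of these cell types in the levels of the NFI genes was not tested.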

How the data were processed

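Total RNA of embryonic cortices was depleted of ribosomal RNA and turned into libraries by Click-seq, in which random stops of cDNA synthesis are joined to a tagged adaptor. The authors made reads with bcl2fastq 2.17, trimmed them with cutadapt 1.13, aligned them to GRCm38 (mm10) with STAR 2.5.2a, collapsed them by molecular tag with UMI-tools 0.5.3 and assigned them to genes with htseq-count 0.6.1p1 in its intersection-nonempty mode, and what they deposited is the resulting count per gene, not normalized. Versions follow the submitters' processing notes. The annotation release and the strand setting of the counting were not given in the sources used here. Of all alignments, 4.96 to 12.45% fell on no gene, 1.78 to 2.07% on more than 1 gene and 14.85 to 20.93% aligned to several places, and these were left out of library totals.

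Groups were taken from the sample titles. Each comparison was fitted alone, without covariates, in edgeR 4.0.16 (R 4.3.3) with filterByExpr at a minimum count of 10, TMM factors and the quasi-likelihood test, with Benjamini-Hochberg adjustment over every gene that passed the filter. Calls were made at a false discovery rate of 0.001 against ctrl, the study's value, and 0.05 between the mutants. The study applied that value to the likelihood-ratio test, so its calls and those here can differ. The SE is the size of the log2FC divided by the square root of the F statistic. CPM used TMM factors over all 19 libraries. Symbols, positions and exon lengths came from GENCODE M21, in which 51633 of 51912 identifiers were found. A count of 3 corresponded to 0.369 to 3.71 CPM, which covers counting error only. No 2 libraries of a group agreed within sampling noise (lowest chi-square per degree of freedom 1.42). The p values measure the spread between embryos and, without litter as a term, treat littermates as independent. The 7 dKO-E embryos came from 2 litters only, 3 from litter 1 and 4 from litter 2. The ctrl embryos came from litters 1, 4, 5 and 7, and each cKO-E embryo from a different litter. The fit was tested on simulated counts first.

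The members and the gene lists were chosen with earlier results of these data known, and the lists were written from general knowledge. Genes named were the members, genes overlapping or flanking them, the 3 genes most correlated with each member, list genes called in a comparison and up to 3 further genes per list by p value in cKO-E. Some of these genes, and the summed level of the cortex identity genes, are not reported here, and *Ezh2*, *Gfap*, *Aqp4*, *Olig1*, *Olig2* and the 4 genes listed at 0 in every library were named after their values were seen. Alternatives were the likelihood-ratio test, DESeq2 1.42.0, other factors and filters, batch, sex, litter or letter as a term, 1 joint fit, single batches, females or litter 1 alone, another threshold, and each embryo left out.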

Additional observations from a re-analysis of the deposited data

Results flagged for a closer look

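Of the 12 sets of CPM values (4 genes in 3 genotypes), 2 had an embryo that lay far from the others relative to the range of its group, a criterion that flags about 1 in 20 groups by chance. *Nfia* in cKO-E A was 3130 CPM, against 3690 in the next embryo, and this embryo, the only one of litter 3, also had the lowest *Nfib* (3580 CPM) and *Nfix* (377 CPM) of its group. Without it the log2FC of cKO-E against ctrl was -0.25 for *Nfia* (adjusted p = 0.00369), -0.27 for *Nfib* (adjusted p = 0.00616) and -0.59 for *Nfix* (edgeR adjusted p = 0.000173). *Nfix* in dKO-E A was 871 CPM, against 620 in the next embryo, and the same embryo had the highest *Nfib* (4380 CPM) and *Nfic* (41.9 CPM) of the dKO-E group. Without it *Nfix* differed by 0.41 between dKO-E and cKO-E (edgeR adjusted p = 0.00109).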

How the results depend on the processing

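The fall of *Nfix* in cKO-E kept its direction and its call in 27 of 28 alternatives, the exception being batch 2 alone (-0.50), and stayed between -0.66 and -0.59 with each embryo left out. The higher *Nfix* and *Nfic* of dKO-E against cKO-E kept their direction in all 27 and their call in 25, with values of 0.41 to 0.56 and 0.55 to 0.69 over left-out embryos; the calls were lost in batch 2 alone (0.29 and 0.66) and at a false discovery rate of 0.001 (0.51 and 0.61). For *Nfia* and *Nfib* in cKO-E, the values of -0.32 to -0.25 and -0.32 to -0.27 over left-out embryos never changed direction. They passed 0.001 with DESeq2 (-0.30 each), batch as a term (-0.30 each) and 1 fit over all embryos (-0.30 each), *Nfib* also with total counts (-0.27). At a false discovery rate of 0.05, *Nfia* and *Nfib* (-0.30 each) and *Nfic* (-0.42) were called. The *Nfic* call at 0.05 was lost with litter as a term (-0.25, adjusted p = 0.265), females alone (-0.39, adjusted p = 0.1) or batch 2 alone (-0.22, adjusted p = 0.622), and without any 1 of ctrl A or B or cKO-E A, C or D (adjusted p up to 0.101).

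In dKO-E, *Nfia* and *Nfib* kept their direction in all 31 alternatives, with -0.30 to -0.26 and -0.32 to -0.27 over left-out embryos, but were called in only 14 and 10. The calls were lost, in the order *Nfia* and *Nfib*, with total counts (-0.19 and -0.21), upper quartiles (-0.26 and -0.28), no filter on low counts (-0.28 and -0.30), at least 10 counts in every embryo (-0.28 and -0.30), litter as a term (-0.20 and -0.33), batch 1 alone (-0.28 and -0.34), batch 2 alone (-0.27 and -0.26), females alone (-0.24 and -0.27) and litter 1 alone (-0.21 and -0.34), and for *Nfib* with sex as a term (-0.29). The lost calls with single batches, females or litter 1 had fewer embryos; for the others the cause was not tested. Total counts moved the median of all genes in this comparison from 0.01 to 0.10, and relative to that median *Nfia* was at -0.29 and *Nfib* at -0.31 under both. Values that were not called changed sign: *Nfic* in dKO-E with litter as a term or litter 1 alone (-0.11 each), *Nfix* in dKO-E with females alone (0.12), and between the mutants *Nfia* and *Nfib* in batch 2 alone (-0.074 and -0.06), with left-out embryos between -0.026 and 0.046 and between -0.031 and 0.032. Litter could not be a term between the mutants, which shared none.

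The letters of the labels did not pair embryos: same-lettered embryos of different genotype had correlations of -0.52 to 0.26, and 3 of 16 correlated best with their own letter. With the letter as a replicate block, *Nfia* and *Nfib* were called in cKO-E (-0.36 each) and not in dKO-E (-0.29 and -0.33), and the genes downregulated numbered 209 in cKO-E and 36 in dKO-E.

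Over all alternatives, the number of downregulated genes ranged from 10 (batch 2 alone) to 1152 (false discovery rate of 0.05) in cKO-E, around 270, and from 0 (females alone) to 1139 in dKO-E, around 266. Upregulated genes ranged from 20 to 852 and from 0 to 620, and between the mutants 25 to 1079 genes were higher (657 as reported) and 280 to 1369 lower (1106). Depth limits *Nfic* most, at 18 counts in the shallowest library.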
